A study of Rattus norvegicus with 2 samples.

Results

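The genes of the 5 oxidative phosphorylation complexes were examined in 2 sorted populations of rat spleen natural killer (NK) cells. Members were all probe sets whose only annotated gene symbol begins with Nduf, Sdha, Sdhb, Sdhc, Sdhd, Uqcr, Cox4, Cox5, Cox6, Cox7, Cox8 or Atp5. The rule found 101 of 31099 probe sets, which stand for 90 of 14217 named genes. It used no measured value. The NK cells came from PVG.7b rats aged 8 to 12 weeks, 9 animals in the whole study, and the labels name no treatment or genetic change. Both populations lacked CD3, carried NKR-P1A and had passed the same depletion with antibodies against TCRαβ, CD5, CD68, Igκ and CD45RA, which mark T cells, macrophages and B cells. One was positive for the inhibitory receptor NKR-P1B and the other for the activating receptor Ly49s3, each without the other receptor. Sorted purity exceeded 90%. RNA of each population went onto 1 array, and the labels do not say how many rats each array represents. With 1 array per population no test was possible, and each difference below describes these arrays.

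Oxidative phosphorylation makes most of the ATP of a resting cell. Complex I (NADH dehydrogenase) and complex II (succinate dehydrogenase) pass electrons to ubiquinone, complex III hands them to cytochrome c, and complex IV (cytochrome c oxidase) gives them to oxygen. Complexes I, III and IV pump protons across the inner mitochondrial membrane, and complex V (ATP synthase) lets them flow back to make ATP. Most subunits are encoded in the nucleus, and several subunits of complex IV exist as alternative forms for muscle, lung or testis. In NK cells oxidative metabolism is known to support cytokine production and survival, and activated cells raise both respiration and glycolysis.

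The nuclear genes of all 5 complexes gave closely matched signals in NKR-P1B+ and Ly49s3+ NK cells. Of the 90 member genes 83 were measured, meaning that at least 1 array exceeded a floor of 20.4 signal units, the 50th percentile of all signals, and 80 exceeded it on both. Signals are in arbitrary units, and values under the floor were raised to it before a log2 difference, NKR-P1B+ minus Ly49s3+, was taken. A gene with several probe sets is given by its brightest. Only the complex I assembly factor gene Ndufaf7 was 1.5-fold or more apart, and it was higher in Ly49s3+ cells. At this floor none was 2-fold apart, against a background of 2.98%. No member was called 1.5-fold higher in NKR-P1B+ cells at this floor. The background over all 9114 measured genes was 5.06% for that direction, 5.72% for the Ly49s3+ direction and 10.8% for both together. Just outside the limit lay Ndufaf8, another assembly factor. A gene with 1 signal under the floor has only a lower bound, and a bound under 1.5-fold was counted as not past the limit, which applies to Cox6c-ps1, a pseudogene of a complex IV subunit, and to Ndufb8 and Sdhaf3. With a lower floor of 9.60 Cox6c-ps1 (30.6 and 9.3), Ndufb8 (22.8 and 10.3) and Ndufa4l2 (19.5 and 8.9) were more than 2-fold higher in NKR-P1B+ cells. These were 3 of 86 members measured at that floor, or 3.49%, against 5.10% of all genes.

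Member differences had a median of 0.04 and an SD of 0.23 over the 83 genes. All measured genes had a median of −0.02 and an SD of 0.42. Bright genes vary less on these arrays, so the comparison was repeated for a mean signal of 100 or more. There 73 members had a median of 0.04 and an SD of 0.22, and all 5385 such genes a median of 0.0038 and an SD of 0.37. No member of that brightness was 1.5-fold apart, against a background of 3.27% higher in NKR-P1B+ cells, 2.84% in Ly49s3+ cells and 6.11% together. The higher signal was in Ly49s3+ cells for 34 of the 83 members, or 41.0%, with a background of 52.2%, and for 30 of the 73 bright members, with a background of 49.4%. Precision was judged from genes with several probe sets above the floor on both arrays. The log2 differences of the 2 brightest probe sets of each gene were subtracted from each other. The SD of the result, divided by the square root of 2 to stand for 1 probe set, is called the disagreement SD. Grouped by the signal of the dimmer probe set, it ran from 0.32 for the dimmest genes to 0.13 above 500. Beyond 1 such SD lay 38 of the 83 members, or 45.8%, which is near the background of 45.9%, as did 34 of the 73 bright members (background 47.3%). That SD leaves out variation between rats, sorts and hybridisations.

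**Figure D1:**
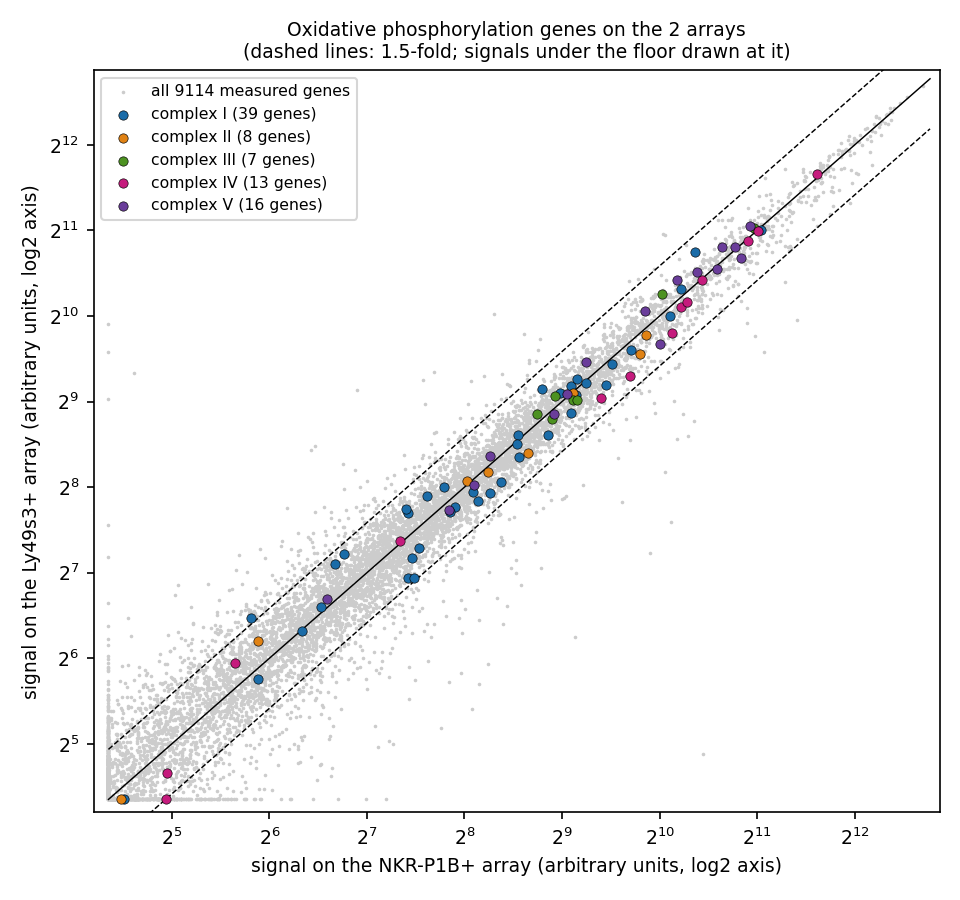
Signal of each measured gene in NKR-P1B+ (x axis) and Ly49s3+ cells (y axis), in arbitrary units on log2 axes, with members coloured by complex, all 9114 measured genes in grey and signals under the floor drawn at it. Dashed lines mark 1.5-fold, and of the 83 coloured points only Ndufaf7, at 56.0 and 88.5, lies past them.

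The arrays as a whole had medians of 19.6 (NKR-P1B+) and 21.2 (Ly49s3+) over 31042 probe sets without controls. All 13 NK markers examined were measured, with summed signals of 30945 and 26267, a median difference of 0.26 and 9 of 13 higher in NKR-P1B+ cells. Klrd1, which encodes CD94, had 3149 and 3151, and the perforin gene Prf1 had 4024 and 3006. The extremes of these markers were Gzmb (3973 and 2549), 1.56-fold higher in NKR-P1B+ cells, and Eomes (1237 and 1820.5), 1.47-fold higher in Ly49s3+ cells. Of other cell types, 7 of 10 T cell, 2 of 6 B cell, 1 of 14 myeloid, 4 of 8 erythroid and 6 of 18 muscle markers were measured. Summed T cell marker signals were 1154 and 1128, B cell 149 and 86.2, myeloid 436 and 221, erythroid 374 and 354, and muscle 847 and 865. Of the 4 measured erythroid genes Hbb (276 and 153) was higher in NKR-P1B+ cells. The other 3 were higher in Ly49s3+ cells, among them Hemgn (50.6 and 131) and Epor (15.5 and 35.8, a lower bound). No marker was at exactly 0, and the T cell gene Cd3e (0.7 and 0.9) and macrophage genes Csf1r (14.8 and 14.7) and Cd68 (12.9 and 8.5) were under the floor. Within the nearly equal T cell sums single genes went opposite ways, with 3 of the 7 measured higher in NKR-P1B+ cells and 4 in Ly49s3+ cells. The brightest, Bcl11b (637 and 429), was higher in NKR-P1B+ cells and makes up a large part of both sums. Trat1 (86.2 and 346) and Cd3g (22.3 and 42.9) were higher in Ly49s3+ cells. Cd5, a depletion target (92.7 and 40.8), and Cd6 (273 and 179) were higher in NKR-P1B+ cells, as were the B cell gene Cd22 (103 and 52.9) and the myeloid gene Lyz2 (356 and 133). The part of such cells in the member values was not tested. In bulk RNA, fewer cells of a type and less RNA per cell cannot be told apart. Signals of the poly-A spikes added to the RNA were higher with the Ly49s3+ RNA for 16 of 17 spike probe sets above the floor, with a median difference of −0.53. Scaling the arrays to these spikes moved the median of all measured genes to 0.50 and that of the members to 0.56. With that scaling 38 of 84 measured members were 1.5-fold or more higher in NKR-P1B+ cells. The background was 38.0% of all 9151 genes then measured. By any amount, 1 of the 84 members was higher in Ly49s3+ cells, against 8.32% of all genes. Directions below therefore hold on the deposited scale, where the arrays share 1 overall level. Because the spikes were added to RNA, neither scale gives RNA per cell. Which overall level is right cannot be told apart here.

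Promoter sequences from RefSeq (build GRCr8) were set beside these values, because many respiratory chain genes are known to carry sites for NRF1, for GABP and other ETS factors, and for YY1. Of the 90 members 82 matched the table by gene number. The window ran from 250 bases before the annotated start to 50 after it. Both strands were searched for 4 motifs. The core of the NRF1 site was spelled GCATGCG. The letters of ETS factors and GABP were CCGGAAG. The letters of YY1 were AAGATGG, and those of the TATA box TATAAA. No match of one motif overlapped a match of another in any member, while matches of the NRF1 core on opposite strands can overlap each other. The ETS letters were in 31.6% of 76 measured member promoters, in 20.5% of 7699 measured genes and in 9.22% of all 27457 promoters in the table. The YY1 letters were in 19 of the 76, in 9.21% and in 7.30%, and the NRF1 letters in 14.5%, 6.74% and 3.54%. The TATA box was in 9.21%, 6.46% and 14.3%. A match is a run of letters and not a measured binding site.

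All 3 of the NRF1, ETS and YY1 motifs stood in 3 of the 76 measured member promoters and in 16 of the 7699 of measured genes. These members were Ndufa6, Atp5me and Atp5pf, and their 200 bases before the start are shown with Sdhb, a succinate dehydrogenase gene with both the NRF1 and ETS letters. Ndufaf7, the member with the largest difference, is shown as well and held none of the 4 motifs in its window. Promoters without the NRF1, ETS and YY1 motifs were common. At least 1 of these 3 was in 40 of the 76 measured member promoters (52.6%) and in 32.1% of the 7699 of measured genes. Capitals mark the NRF1, ETS and YY1 letters. The stretches are chr7:115750318-115750517 (minus strand) for Ndufa6, chr14:1464660-1464859 (plus) for Atp5me, chr11:37375102-37375301 (minus) for Atp5pf, chr5:158547734-158547933 (plus) for Sdhb and chr6:21871966-21872165 (minus) for Ndufaf7.
Ndufa6: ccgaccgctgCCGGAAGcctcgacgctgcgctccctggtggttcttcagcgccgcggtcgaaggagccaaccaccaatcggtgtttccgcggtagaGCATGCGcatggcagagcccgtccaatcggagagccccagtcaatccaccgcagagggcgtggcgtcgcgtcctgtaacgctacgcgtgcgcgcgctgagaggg
Atp5me: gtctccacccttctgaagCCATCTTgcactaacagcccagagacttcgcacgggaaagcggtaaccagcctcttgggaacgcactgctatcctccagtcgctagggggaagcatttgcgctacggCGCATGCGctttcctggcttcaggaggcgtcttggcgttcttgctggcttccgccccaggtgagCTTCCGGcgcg
Atp5pf: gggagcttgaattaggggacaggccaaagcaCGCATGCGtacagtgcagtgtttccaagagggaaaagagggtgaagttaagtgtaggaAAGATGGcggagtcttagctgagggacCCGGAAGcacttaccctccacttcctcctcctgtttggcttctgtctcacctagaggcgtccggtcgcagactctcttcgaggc
Sdhb: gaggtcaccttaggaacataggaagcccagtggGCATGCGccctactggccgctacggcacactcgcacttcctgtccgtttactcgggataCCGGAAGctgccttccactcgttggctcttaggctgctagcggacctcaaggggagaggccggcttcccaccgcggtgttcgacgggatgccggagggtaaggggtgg
Ndufaf7: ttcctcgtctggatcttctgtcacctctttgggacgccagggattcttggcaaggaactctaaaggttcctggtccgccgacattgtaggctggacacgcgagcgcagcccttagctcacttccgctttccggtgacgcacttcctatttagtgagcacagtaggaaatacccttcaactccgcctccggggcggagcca
In Ndufa6 the YY1 letters began 15 bases after the start and so lie outside the stretch shown. Median differences were 0.01 with the NRF1 letters (11 genes) and 0.04 without (65), 0.05 with the ETS letters (24) and 0.03 without (52), and 0.09 with the YY1 letters (19) and 0.01 without (57). Higher in Ly49s3+ cells were 5 of the 19 with the YY1 letters and 28 of the 57 without, 9 of 24 and 24 of 52 for the ETS letters, and 5 of 11 and 28 of 65 for the NRF1 letters. The promoters shown belong to genes with log2 differences of 0.31 (Ndufa6), 0.08 (Atp5me), 0.06 (Atp5pf), 0.26 (Sdhb) and −0.66 (Ndufaf7).

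Complex I contributed 34 subunit genes, all of them measured. None was past 1.5-fold, with Ndufb8 known only as a lower bound. Their median difference was 0.07, with 22 higher in NKR-P1B+ cells and 12 in Ly49s3+ cells. The extremes were the membrane arm subunit gene Ndufb10 and Ndufs4. Ndufb10 had a signal of 171 in NKR-P1B+ cells and 123 in Ly49s3+ cells, 1.39-fold higher on the former. Ndufs4, an accessory subunit close to the NADH-oxidising part whose loss causes severe mitochondrial disease, had 109 and 149, 1.37-fold higher in Ly49s3+ cells. Both differences, 0.47 and −0.46, were more than 2 times the disagreement SD of 0.22 at that brightness. Ndufb1, another membrane arm subunit gene, followed with 307 and 245, a difference of 0.33.

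The 6 measured core subunit genes, most of which encode flavin or iron-sulphur proteins, had a median of −0.09 with 3 on each side. Their quartiles of −0.27 and 0.04 overlap the quartiles of −0.08 and 0.21 of the 28 supernumerary genes. Ndufs1, the largest iron-sulphur subunit, had 196 and 239 (difference −0.29), Ndufs3 had 221 and 255 (−0.21), and the iron-sulphur subunit gene Ndufs8 had 169 and 215 (−0.35). In contrast, Ndufs7, which holds the last iron-sulphur cluster before ubiquinone, was higher in NKR-P1B+ cells with 464 and 389.6, a difference of 0.25. The flavoprotein gene Ndufv1, which binds FMN and takes electrons from NADH, had 608 and 595, and its partner Ndufv2 had 372 and 362. These flavoprotein differences, 0.03 and 0.04, were under the disagreement SD.

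Of the 12 NDUFA genes counted with complex I, 9 were higher in NKR-P1B+ cells, with a median of 0.13. Ndufa6 (331 and 267.5) and Ndufa7 (282 and 229) differed most, by 0.31 and 0.30, and the second probe set of Ndufa7 went the same way with a bound of 0.37. Ndufab1, the mitochondrial acyl carrier protein that serves both complex I and fatty acid synthesis, had 231 and 209.8. Ndufa13, also known as GRIM-19, had 547 and 466 (0.23), and Ndufa1 had 2106 and 2054.5 (0.04). Among the 11 NDUFB genes, which encode membrane arm subunits, 8 were higher in NKR-P1B+ cells with a median of 0.15, while Ndufb2, Ndufb3 and Ndufb5 were higher in Ly49s3+ cells. Ndufb3 had 1319.6 and 1717.5, and Ndufb2 had 445 and 568, differences of −0.38 and −0.35 against a disagreement SD of 0.13 for each. Ndufb5 differed by −0.12. Ndufb8 had 22.8 and 10.3, so its value of 0.16 is a lower bound, and with the lower floor it was 2.21-fold. Ndufb11 had 700.3 and 586 (0.26) and Ndufb7 185.5 and 157 (0.24). Ndufc1, a small membrane arm subunit gene outside both series, had 172 and 208 (−0.27). The complex I subunit genes not named had differences between −0.11 and 0.20. Ndufv3 had 2 probe sets of opposite sign, −0.07 on the brighter and 0.28 on the dimmer.

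The complex I assembly factors, proteins that help build the complex and are not part of it, spread most widely of the member classes, with differences from −0.66 to 0.54 over 5 measured genes. Ndufaf7, a mitochondrial methyltransferase needed early in assembly, had 56.0 in NKR-P1B+ cells and 88.5 in Ly49s3+ cells, 1.58-fold higher on the latter. Its second probe set had 31.6 and 33.6, a difference of only −0.09, and the mean over both was −0.37, which is within 1.5-fold. Ndufaf5, which hydroxylates the core subunit NDUFS7, was also higher in Ly49s3+ cells (102 and 138, difference −0.44). Its partner protein gene Ndufaf8 ran the other way, with 179 and 123 and a difference of 0.54. Ndufaf3 and Ndufaf4 encode proteins that work as a pair on the ubiquinone-binding part. Ndufaf3 had 176.5 and 145 (0.29), and Ndufaf4 had 1193 and 1273 (−0.09). Ndufaf1 was under the floor on both arrays, at 7.7 and 12.0. The difference of Ndufaf4 was within its disagreement SD of 0.13.

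**Figure D2:**
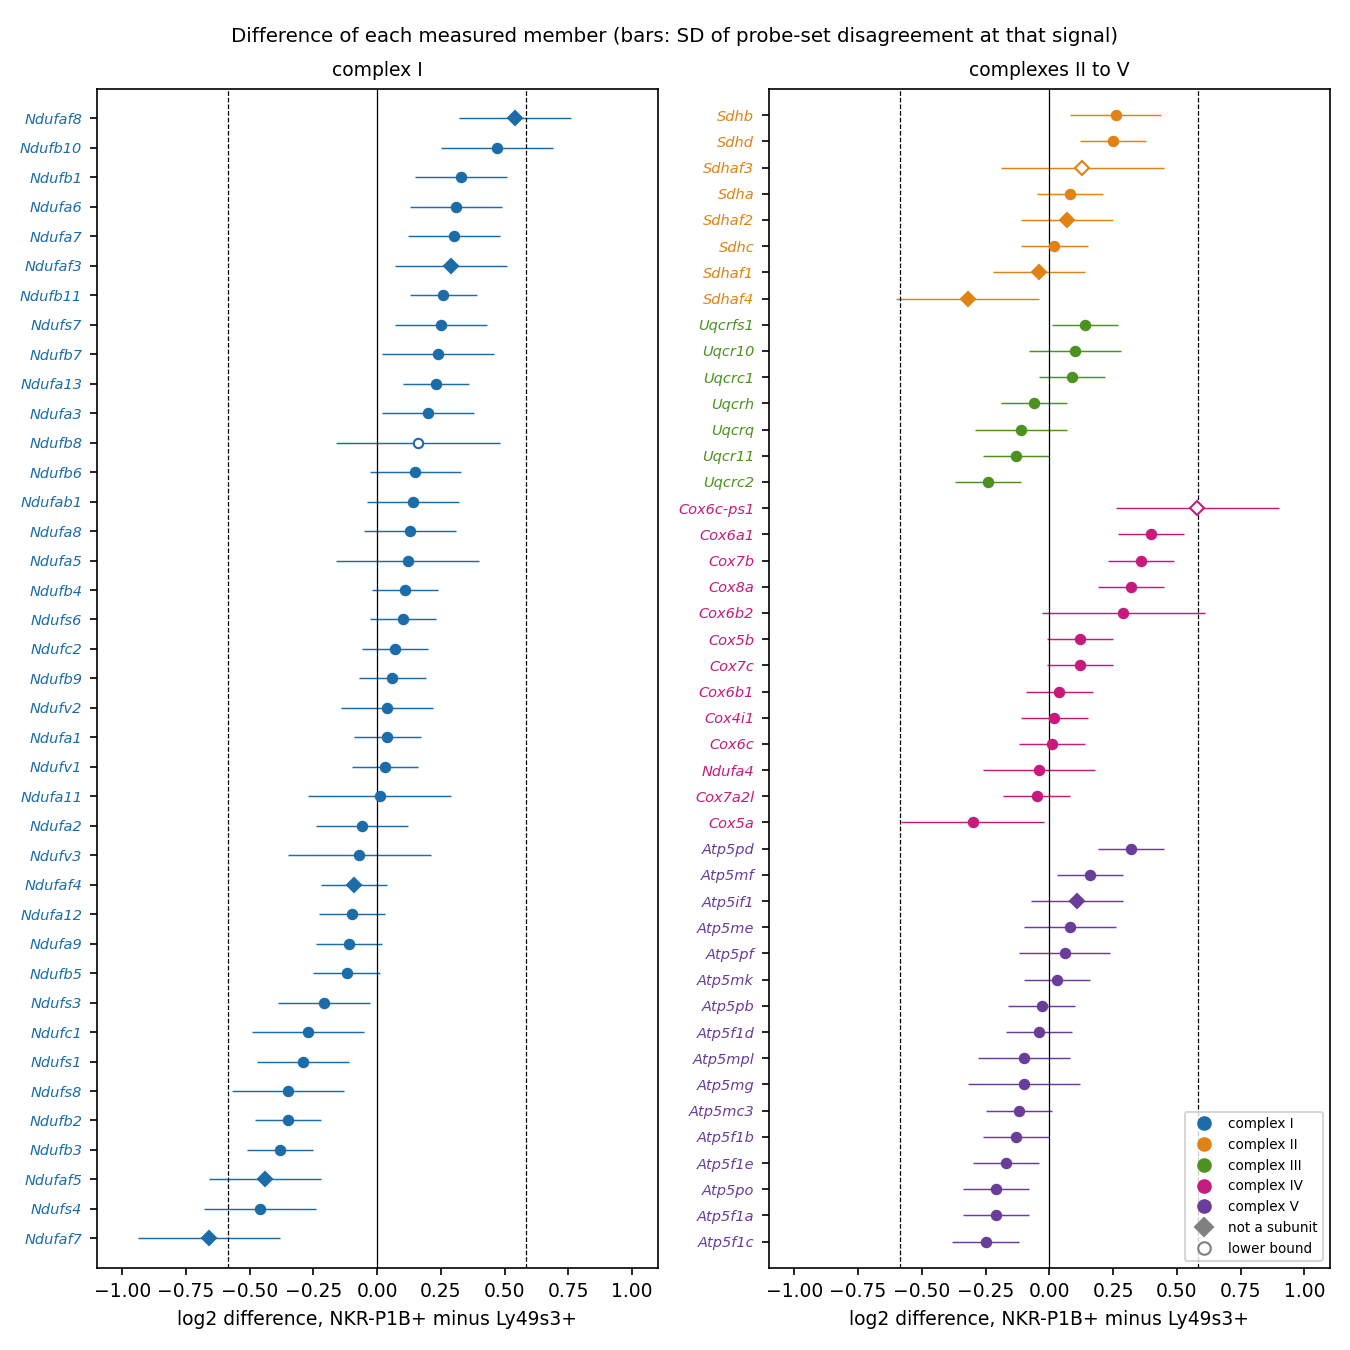
Log2 difference (x axis, NKR-P1B+ minus Ly49s3+) of each of the 83 measured members, ordered by complex, with dashed lines at 1.5-fold. Horizontal bars are the disagreement SD at that brightness. Open symbols are lower bounds and diamonds are genes that encode no subunit; Ndufaf7 at −0.66 is the only point past a dashed line, and all 5 Atp5f1 genes lie left of 0.

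All 4 subunit genes of complex II were higher in NKR-P1B+ cells, by little, with a median of 0.17. Complex II is also the citric acid cycle enzyme that oxidises succinate, and it pumps no protons. Sdha, the flavin subunit that oxidises succinate, had 929 and 877, a difference of 0.08. Sdhb, the iron-sulphur subunit, had 401 and 336, a difference of 0.26. Sdhd, a membrane anchor, had 894 and 751 on its brighter probe set and 458 and 454 on the other, differences of 0.25 and 0.01. Sdhc, the other anchor, had 554 and 548 (0.02). Sdhb and Sdhd exceeded the disagreement SD of 0.18 and 0.13, and Sdha and Sdhc did not. Relative to the median of all measured genes, the complex II median was 0.13 to 0.20 higher under the 10 settings examined, the deposited scale included.

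The 4 complex II assembly factor genes were measured and fell on both sides. Sdhaf4, which shields the newly flavinated SDHA, had 59.1 and 73.7, a difference of −0.32. Sdhaf2, required to attach the flavin to SDHA, had 302 and 288 (0.07). Sdhaf1 and Sdhaf3 encode proteins that assist the iron-sulphur subunit. Sdhaf1 had 261 and 269 (−0.04), and Sdhaf3 was near the floor with 22.3 and 19.8. Only Sdhaf4 exceeded the disagreement SD, which was 0.28 at its brightness.

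Complex III gave 7 measured subunit genes with a median difference of −0.06, from −0.24 to 0.14. The matrix core protein gene Uqcrc2 was the most distant, with 1039 in NKR-P1B+ cells and 1228 in Ly49s3+ cells. Its dimmer probe set ran the other way, 42.8 and 34.1, a difference of 0.33. With the mean of both probe sets in place of the brighter, the complex median became 0.04, with shared probe sets included it was 0.00080, and with the poly-A scaling 0.47. The other core protein gene, Uqcrc1, had 552 and 519.5 (0.09), and Uqcrfs1, which encodes the Rieske iron-sulphur protein that takes electrons from ubiquinol, had 569.6 and 518 (0.14). Of the small subunits, Uqcr10 had 476 and 445 (0.10), Uqcr11 487.5 and 534 (−0.13), and Uqcrq 428 and 462.5 (−0.11). The hinge protein gene Uqcrh, next to the cytochrome c binding site, had 1998 and 2086 (−0.06).

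Of 18 complex IV subunit genes, 12 were measured and 6 were under the floor on both arrays. The measured genes had a median of 0.08, and 9 of them were higher in NKR-P1B+ cells. Cox6a1, Cox7b and Cox8a, all small subunits around the catalytic core, led with differences of 0.40, 0.36 and 0.32 against a disagreement SD of 0.13. Cox6a1 had 833 in NKR-P1B+ cells and 629 in Ly49s3+ cells, Cox7b had 675 and 525, and Cox8a had 1116 and 892. In the other direction, Cox5a had 50 and 61.5 (−0.30), but a brighter probe set annotated with Cox5a and a second locus had 1247.5 and 1246.5, a difference of 0.00. Cox5b had 1195 and 1102 (0.12), Cox7c 1243 and 1145 (0.12), and Cox6c 2060.3 and 2041 (0.01). Ndufa4, named for complex I but now known as a complex IV subunit, had 161.5 and 166 (−0.04). Cox7a2l, which joins complexes III and IV into supercomplexes, had 3127 and 3241.5 (−0.05).

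The alternative forms of complex IV subunits separated into forms above and under the floor on both arrays alike. Above it were the general forms Cox4i1 (1389 and 1372), Cox6a1, Cox6b1 (1926 and 1877), Cox7b and Cox8a. Under it were the lung form Cox4i2 (5.2 and 6.9), the heart and skeletal muscle forms Cox6a2 (0.6 and 1.3), Cox7a1 (2.6 and 1.4) and Cox8b (0.5 and 0.9), and the testis form Cox7b2 (8.3 and 13.8). Ndufa4l2, a relative of Ndufa4 induced by low oxygen, was under it too at 19.5 and 8.9. The testis form Cox6b2 was slightly above it at 30.9 and 25.3, a difference of 0.29 within the disagreement SD of 0.32. No muscle form exceeded the floor in either population, while 6 of 18 muscle markers did, 3 of them higher in each population, with a median difference of 0.06. Tnni2 (23.4 and 88.6) and Myh2 (24.0 and 76.4) were higher in Ly49s3+ cells, Myh1 (636 and 574) and Tnnt3 (46.9 and 39.7) in NKR-P1B+ cells. Probe sets differ in response, so no level is compared between genes. Cox6c-ps1, the pseudogene, had 30.6 and 9.3, a lower bound whose size rests on the floor, and signal shared with Cox6c was not tested.

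Complex V had 15 measured subunit genes, 10 of them higher in Ly49s3+ cells, with a median of −0.10. All 5 genes of the F1 part, the head that makes ATP with its central shaft, were on that side. Their median was −0.17, with differences from −0.25 to −0.04. Atp5f1a, the alpha subunit, had 921 in NKR-P1B+ cells and 1069 in Ly49s3+ cells, and Atp5f1b, the catalytic beta subunit, had 1339 and 1467. Atp5f1c, the gamma shaft that turns inside the head, had 1158 and 1374, and differed most. Atp5f1d and Atp5f1e, the small subunits at the foot of the shaft, had 530.1 and 546 and 1600.2 and 1794. Atp5f1a, Atp5f1c and Atp5f1e exceeded the disagreement SD of 0.13, with differences of −0.21, −0.25 and −0.17, and Atp5f1d at −0.04 did not, while Atp5f1b at −0.13 was about equal to it. The F1 median lay 0.13 to 0.21 below that of all measured genes in all 10 settings, and its own sign was positive (0.37) only with the poly-A scaling. The grouping into F1 and the membrane part with the outer stalk was chosen after the values were seen. The core, supernumerary, NDUFA and NDUFB groups of complex I were likewise not among the planned results.

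The 10 genes of the membrane part and the outer stalk of complex V were split evenly, with a median of 0.0018. Atp5pd, the d subunit of the outer stalk, was the highest in NKR-P1B+ cells with 1025 and 819, a difference of 0.32. Atp5po, which encodes OSCP at the top of that stalk, had 609 and 705 (−0.21) on the brighter probe set and a bound of 0.13 on the dimmer. Atp5mf, a membrane subunit, had 1826 and 1637 (0.16), and Atp5mc3, one of the genes for the proton-carrying c ring, had 1954 and 2122 (−0.12). The stalk genes Atp5pb (1757 and 1789) and Atp5pf (484 and 464) differed by −0.03 and 0.06. The small membrane subunit genes Atp5mg, Atp5mpl and Atp5mk differed by −0.10, −0.10 and 0.03. Probe sets shared by a gene and a close copy gave 232.5 and 305 for the c ring gene Atp5mc1 (−0.39) and 313 and 254 for Atp5mc2 (0.30), opposite in sign. Atp5if1, the natural inhibitor that stops ATP synthase from running backward, had 230.0 and 213 (0.11), and its other 2 probe sets were under the floor.

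In all, 7 probe sets were left out of the members because they match a member and another locus. Their differences ran within 1.5-fold as well. Besides those named for Cox5a, Atp5mc1 and Atp5mc2, Ndufa10 had 494 and 576 (−0.22), Ndufs5 206 and 202 (0.03), Uqcrb 1745 and 1669.5 (0.06) and Cox7a2 1684 and 1710.0 (−0.02). Of the subunits encoded in the mitochondrial genome, the annotation named 2 with a probe set of their own, looked up after the values were seen. Both are named here from the platform symbols alone, since their gene numbers were not matched to RefSeq, and COX1 and COX2 are also old names of the cyclooxygenase genes Ptgs1 and Ptgs2, which the annotation lists under other probe sets. If read as complex IV subunits, the catalytic COX1 had 5355 and 5366, and COX2, which takes electrons from cytochrome c, had 5097 and 4887. The ratio for COX2 was 1.04-fold, and that for COX1 was closer to parity. The others are not analysed here.

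Genes that supply, build or control the chain were counted from lists alongside the members. The background for these counts was 10.8% of all 9114 measured genes 1.5-fold or more apart in either direction. It was 6.11% among genes with a mean signal of 100 or more. Of 45 other measured assembly factor genes, 42 were not past 1.5-fold, with a median of −0.12, and 3 were higher in Ly49s3+ cells. Examples are Nubpl, which delivers iron-sulphur clusters to complex I (45.0 and 80.8, 1.80-fold), and the small protein gene Lyrm2 (122 and 210.5, 1.73-fold). Of 19 electron carrier and ubiquinone synthesis genes, 18 were within 1.5-fold, with a median of −0.12, and Coq4, needed for ubiquinone synthesis, was at least 1.96-fold higher in Ly49s3+ cells (13.8 and 39.9). Cyc1, the cytochrome c1 gene of complex III that the name rule misses, had 491 and 534 (−0.12). Of 15 citric acid cycle and pyruvate dehydrogenase genes, 14 were within 1.5-fold with a median of −0.0029. The exception was Sucla2, a succinate-CoA ligase subunit, 1.52-fold higher in NKR-P1B+ cells (718 and 472).

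The 19 measured regulators of mitochondrial gene expression were all within 1.5-fold, with a median of −0.05 and 9 higher in NKR-P1B+ cells. Of all measured genes 10.8% were 1.5-fold or more apart, and 6.11% of those with a mean signal of 100 or more. For the factors whose motif letters were searched, the transcription factor gene Nrf1 had 163 and 138 (0.24), Gabpa 345 and 404 (−0.23), its partner Gabpb1 383 and 289 (0.41) and Yy1 1235 and 1416 (−0.20). The mitochondrial transcription factor gene Tfam had 358 and 393 (−0.14), and the nuclear receptor gene Esrra had 40.9 and 55.4 (−0.44). Ppargc1a, a coactivator of mitochondrial biogenesis, was under the floor at 0.8 and 0.6, and its relative Ppargc1b had 41.0 and 38.5. Proliferation genes on the same arrays were higher in Ly49s3+ cells in 25 of 30 measured genes, with a median of −0.51, and their part in the member values was not tested.

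**Figure D3:**
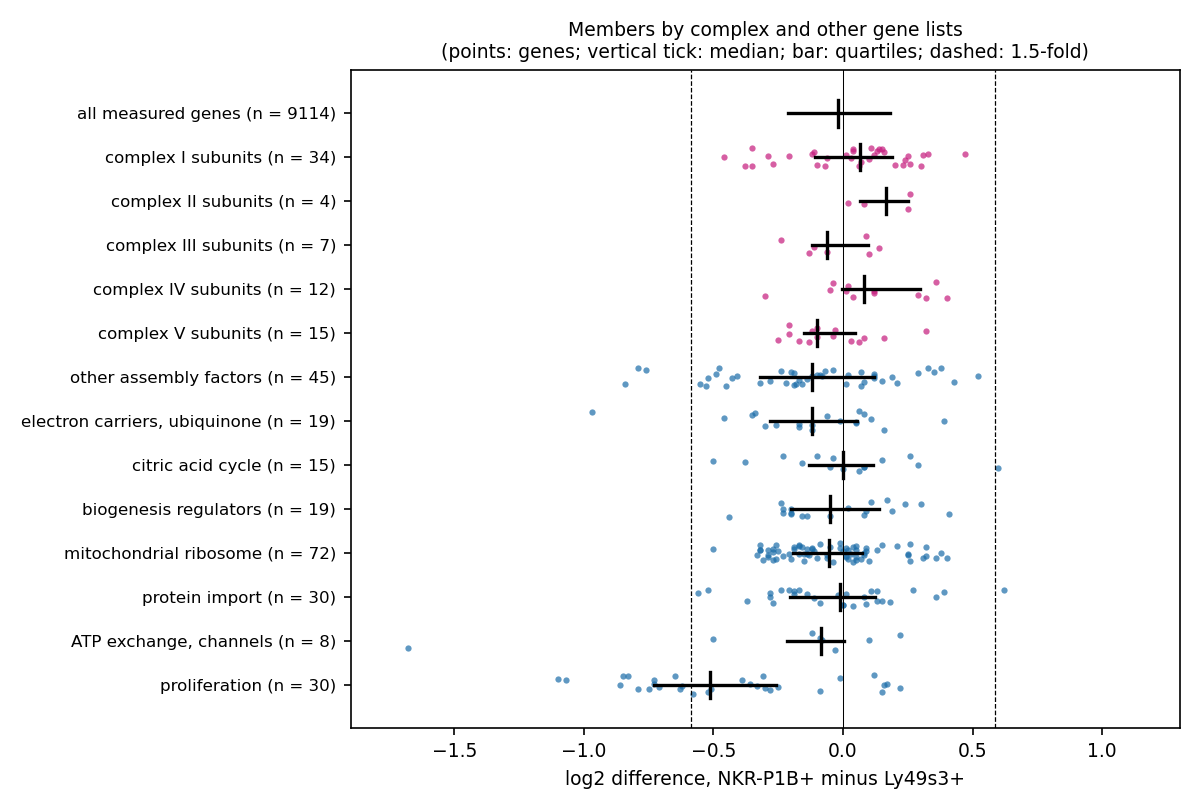
Log2 difference (x axis, NKR-P1B+ minus Ly49s3+) of single genes (points) in each complex and in the other lists, with a vertical tick at the median, a bar over the quartiles and dashed lines at 1.5-fold. The complex medians lie between −0.10 (complex V) and 0.17 (complex II), close to the −0.02 of all measured genes, while the proliferation median lies at −0.51.

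The order of the complexes was compared across scalings and floors. With the poly-A scaling all 5 complex medians became positive, from 0.43 (complex V) to 0.70 (complex II), as did that of all genes. In that setting complex V stayed 0.06 below and complex II 0.20 above the median of all genes. Complex III was the one complex whose side of that median differed among settings, at 0.06 above it with the mean of all probe sets, 0.02 above it with shared probe sets included, and below it in the others.

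**Figure D4:**
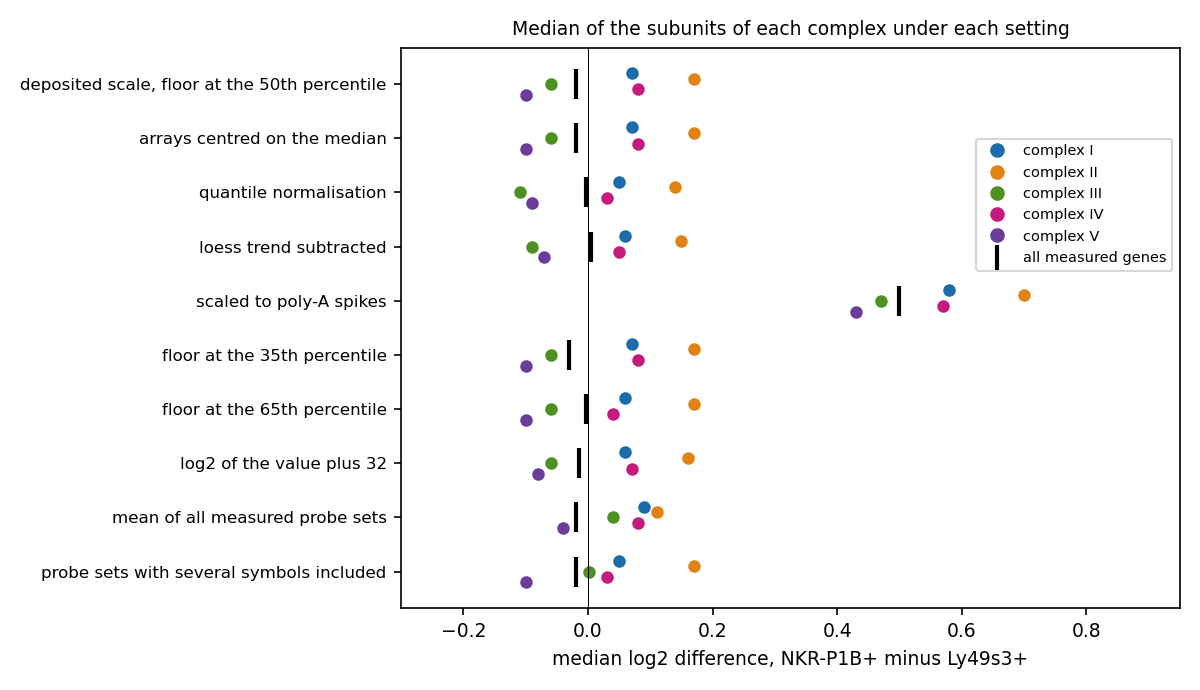
Median log2 difference of the subunits of each complex (x axis, coloured points) under each of the 10 settings (y axis), with a black tick for all measured genes. The poly-A scaling shifts all points together, from −0.02 to 0.50 for all genes, and complex II is the highest complex in every setting drawn.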

How the data were processed

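Each population's cRNA, labelled from 3 ug of total RNA, was read on 1 Affymetrix rat array. The authors deposited 1 linear intensity for every probe set, made with MAS5 per the submitters' processing notes, whose version and scaling target were not given in the sources used here. A lower signal toward the 5' end was seen on both arrays (actin 3' to 5' ratios of 11.9 and 13.2). Symbols came from the platform annotation (20826 probe sets with 1 symbol, 436 with several, 9780 with none), and all 90 members kept their symbol in RefSeq by gene number. Values were floored at 20.4 and converted to log2, with python 3.11.15, numpy 2.4.6, pandas 2.3.3 and statsmodels 0.14.6. The steps were tested on simulated arrays, with planted changes well past 2-fold in probe sets far above the floor. Calls at 1.5-fold or near the floor were not tested in this way. The number of arrays limits the precision, and no p-value was computed.

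Named members were those 1.5-fold apart, up to 3 per direction and complex, the alternative forms, and assembly factors or the inhibitor, in all 44 genes; other members are given because all are accounted for. From the other lists up to 2 genes per direction past 1.5-fold were named, with further genes chosen after their values were seen. No proliferation gene was named, although that list had genes past 1.5-fold. Members and lists were chosen with earlier results of these data known. Alternatives were median centring, quantile normalisation, a loess trend (span 0.3), poly-A scaling, floors at the 35th and 65th percentiles, log2 of the value plus 32, and the mean of all probe sets. Inclusion of shared probe sets was added after seeing the data.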

Additional observations from a re-analysis of the deposited data

How the results depend on the processing

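No paired analysis was possible because each population has 1 array, and no array could be left out. Median centring, the higher floor and inclusion of shared probe sets moved none of the 9 main counts and medians, where a median counted as moved at 0.1 or more and a count at over 1.5 times. Members 1.5-fold higher on the NKR-P1B+ array numbered 1 after quantile normalisation, 1 after loess, 1 with the added 32 and 3 with the lower floor, in place of 0. Measured members numbered 86 with the lower floor and 83 in the other settings just named. The share of all genes called toward NKR-P1B+ in these settings ran from 3.03% (added 32) to 6.83% (lower floor). Members 1.5-fold higher on the Ly49s3+ array numbered 0 with the added 32 and 0 with the mean of all probe sets, in place of 1. All genes in that direction were 2.49% and 5.30% in these settings. With the mean of all probe sets the complex III median was 0.04. With the poly-A scaling these counts were 38 and 0 of 84 measured members, and 1 member had the higher signal on the Ly49s3+ array. The median was then 0.56 for all members, and 0.58, 0.70, 0.47, 0.57 and 0.43 for complexes I to V. The scaling shifts every gene by 1 factor. All genes 1.5-fold apart were then 38.0% toward NKR-P1B+ and 1.03% toward Ly49s3+, instead of 5.06% and 5.72%. With the lower floor the share of all genes apart was 16.6% and with the added 32 it was 5.52%, in place of 10.8%. The cause of the other moves was not tested. Signal near the floor limits Ndufb8, Sdhaf3, Cox6b2 and Cox6c-ps1.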

Other observations

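The mitochondrial ribosome, which makes the subunits encoded in the mitochondrial genome, gave 72 measured genes. Their median difference was −0.06, with 41 genes higher in Ly49s3+ cells. All 72 were within 1.5-fold, where 10.8% of all measured genes were 1.5-fold or more apart. Among all genes with a mean signal of 100 or more that share was 6.11%. Protein import genes gave 30, of which 29 were within 1.5-fold with a median of −0.0078, and Grpel2, a cofactor of the mitochondrial HSP70, was 1.54-fold higher in NKR-P1B+ cells (52.8 and 34.3).

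The carriers that exchange ATP, ADP and phosphate with the cytosol, with the uncoupling proteins and channels, gave 8 measured genes with a median of −0.08. Slc25a4, the ADP and ATP carrier typical of heart and muscle, was 3.20-fold higher in Ly49s3+ cells (191 and 610.5). The general form Slc25a5 had 3117.5 and 3323 (−0.09), and the phosphate carrier gene Slc25a3 had 2160.0 and 2277 (−0.08).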
